A study of Canis lupus familiaris with 5 samples.

Results

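ALPL is 1 of the 20257 features in the count matrices of a canine bone marrow single-cell study, and it is described here across 5 libraries with attention to the CD34-positive cells of the myeloid branch. It was chosen by its UMI counts in CD34-positive cells of these libraries, with results known, so its levels by library and by gate are a description with no test. The gene encodes tissue-nonspecific alkaline phosphatase, an ectoenzyme held to the outer membrane by a glycosylphosphatidylinositol (GPI) anchor. The enzyme removes phosphate from extracellular pyrophosphate, from pyridoxal phosphate (the circulating form of vitamin B6) and from AMP, the step before adenosine. It is known for mineralization by osteoblasts and is also made in liver and kidney. In humans it marks mature neutrophils as leukocyte alkaline phosphatase. Neutrophils of healthy dogs are usually negative by cytochemistry, and alkaline phosphatase staining of blasts is used in the work-up of canine acute myeloid leukaemia.

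Viable CD34-positive cells isolated by flow cytometry gave 2 libraries (CD34-sorted 1 and 2), and they were set against 3 libraries of unsorted marrow (whole marrow 1, 2 and 3). All came from the femoral marrow of 3 healthy dogs of wild-type genotype, with no treatment and no age named in the labels. The protocol takes the cells for sorting from marrows 2 and 3, so both groups share animals, but no label states which sorted library belongs to which dog. Red cells had been lysed, and the whole marrows were accepted at over 70% viable cells and under 25% neutrophils. CD34 is a surface sialomucin of hematopoietic stem and progenitor cells, and its transcript summed to 390 and 224 CPM (counts per 1000000 UMIs) in the sorted libraries, against 16.4, 13.2 and 12.8 CPM in whole marrow.

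Barcodes were kept with at least 200 detected genes and at most 10% mitochondrial UMIs (unique molecular identifiers, the counted molecules). This left 4720 and 3765 sorted barcodes and 7295, 4585 and 4343 whole-marrow barcodes. Deposited UMIs summed to between 46114431 and 70169186 per library, but depth per barcode differed. The median was 11622 and 14623 UMIs in the sorted libraries, against 2694, 3689 and 4344 in whole marrow, and the median mitochondrial share was 6.12% and 7.83% in sorted barcodes, against 1.10%, 1.54% and 1.76% in whole marrow. Pairs of libraries shared between 3 and 11 barcodes. Shares of barcodes with a UMI are therefore given both as deposited and after drawing 1000 UMIs from each barcode, and intervals cover counting error only.

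Across all kept barcodes ALPL stood at 73.0 CPM (exact Poisson 95% interval 70.9 to 75.2) in CD34-sorted 1 and 79.0 CPM (76.8 to 81.3) in CD34-sorted 2. It stood at 7.099 CPM (6.39 to 7.86), 10.7 CPM (9.77 to 11.7) and 5.94 CPM (5.24 to 6.70) in whole marrow 1, 2 and 3. Every sorted library lay above every whole-marrow library, and the ratio of the group means was 9.61. A UMI of ALPL was found in 32.4% and 37.1% of sorted barcodes, against 1.84%, 2.49% and 1.73% of whole-marrow barcodes. At 1000 UMIs per barcode those shares were 4.14% and 5.07% in the sorted libraries, against 0.227%, 0.620% and 0.189% in whole marrow.

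Barcodes were then placed by gates on their own UMIs, each built on genes that mark a stage. A stem-type gate took at least 4 UMIs of SULT1B1 and TFPI together. CD34 in its barcodes reached 536 and 362 CPM after the sort, and 350, 479 and 332 CPM in whole marrow, above the CD34 level of the MPO gate in every library. Along the granulocyte path, MPO (myeloperoxidase, made by neutrophil progenitors) took 0.02 to 0.1% of the UMIs in a low-MPO gate. In the MPO gate it took at least 0.1%, with ELANE (neutrophil elastase, the promyelocyte protease) under 1%. ELANE itself at 1% or more, CAMP (cathelicidin) at 1% or more, at least 5 UMIs of LTF and MMP8 (secondary and tertiary granule genes) and at least 2 UMIs of CXCL8 set later gates. At least 2 UMIs of VCAN (monocytes), at least 2 UMIs of GATA1 (erythroid and megakaryocyte branch) and at least 5 UMIs of VPREB1 (pro-B cells) gave the other lineages.

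Of these gates, the 5 that held the most barcodes in the sorted libraries are given first, and among them ALPL per UMI was highest in the MPO gate. The MPO gate held 442 and 351 barcodes and reached 144 CPM (137 to 151) in CD34-sorted 1 and 147 CPM (140 to 154) in CD34-sorted 2. The low-MPO gate held 308 and 218 barcodes at 115 CPM (106 to 125) and 139 CPM (128 to 150). The GATA1 gate came next with 61.8 CPM (55.1 to 69.2) in 268 barcodes and 64.9 CPM (59.0 to 71.2) in 329. The stem-type gate gave 48.5 CPM (45.5 to 51.5) in 1534 barcodes and 71.9 CPM (68.5 to 75.4) in 1675. The VPREB1 gate was lowest of these 5, at 22.1 CPM (19.8 to 24.7) in 2122 barcodes and 19.05 CPM (16.9 to 21.4) in 1560.

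As means over the 2 sorted libraries the order ran 145.6 ± 2.07 CPM in the MPO gate, 127 ± 16.7 CPM in the low-MPO gate, 63.4 ± 2.16 CPM in the GATA1 gate, 60.2 ± 16.6 CPM in the stem-type gate and 20.6 ± 2.19 CPM in the VPREB1 gate (SD, n = 2). The GATA1 and stem-type values overlapped between libraries, and the MPO and low-MPO means differed by little more than 1 SD of the low-MPO gate. The 9.36% and 9.32% of sorted barcodes in the MPO gate carried 39.2% and 33.1% of all ALPL UMIs of their libraries.

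Later stages were hardly present after the CD34 sort. The ELANE gate held 3 barcodes at 221 CPM (141 to 328) in CD34-sorted 1 and 19 at 118 CPM (90.9 to 151) in CD34-sorted 2, and the CAMP gate held 3 and 8 barcodes with no ALPL UMI. The 20 and 28 sorted barcodes of the LTF and MMP8 gate had 46.2 CPM (24.6 to 79.0) and 74.5 CPM (53.2 to 101) of ALPL. Those barcodes carried CD34 at 654 and 365 CPM. The CXCL8 gate held 7 and 3 sorted barcodes at 139 CPM (85.2 to 215) and 187 CPM (75.2 to 385), from 20 and 7 ALPL UMIs, with CD34 at 244 and 240 CPM. The VCAN gate held 1 and 8 sorted barcodes at 0 and 25.9 CPM.

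**Figure D1:**
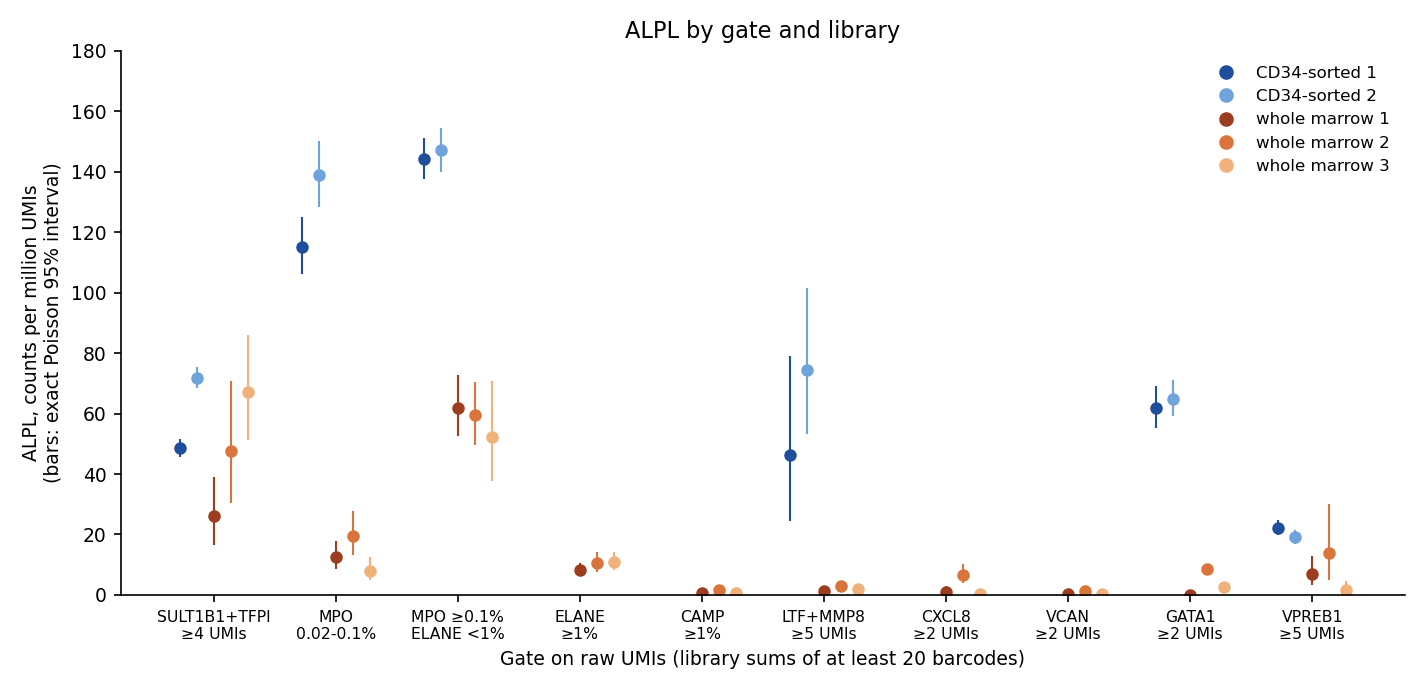
ALPL level in CPM (vertical axis) for each gate (horizontal axis) and library (colours), with exact Poisson 95% intervals, drawn where a library had at least 20 barcodes in the gate. The 2 sorted libraries sit at 144 and 147 CPM in the MPO gate, and all whole-marrow points of the CAMP gate lie under 2 CPM.

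Among these gates in whole marrow, mean ALPL was highest in the MPO and stem-type gates, and it lay at or under 6.59 CPM in the CAMP, LTF and MMP8, and CXCL8 gates. The MPO gate gave 62.0 CPM (52.5 to 72.6) in 162 barcodes, 59.4 CPM (49.7 to 70.4) in 93 and 52.2 CPM (37.7 to 70.6) in 47 for whole marrow 1, 2 and 3. The stem-type gate gave 26.0 CPM (16.5 to 39.1) in 62 barcodes, 47.5 CPM (30.4 to 70.6) in 29 and 67.0 CPM (51.4 to 85.9) in 44. The MPO gate was above the stem-type gate in whole marrow 1 and 2 and below it in whole marrow 3, with ratios of 2.38, 1.25 and 0.779, so the order held in 2 of the 3 whole-marrow libraries.

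The ELANE gate of whole marrow, 516, 279 and 232 barcodes, had 8.33 CPM (6.40 to 10.7), 10.5 CPM (7.61 to 14.2) and 10.8 CPM (8.12 to 14.1). The CAMP gate, with 1406 to 2466 barcodes per library, held 6, 14 and 7 ALPL UMIs in all, or 0.485, 1.75 and 0.596 CPM. The LTF and MMP8 gate, with 2380 to 4091 barcodes, had 1.46, 3.01 and 1.90 CPM. The CXCL8 gate of late neutrophils had 0.995, 6.59 and 0.224 CPM, from 3, 20 and 1 UMIs. In whole marrow 2 the 20 UMIs lay in 4 barcodes, of which 3 also held both a CD34 and an MPO UMI. The values of the MPO and ELANE gates did not overlap between libraries, nor did those of the ELANE and CAMP gates.

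Outside the granulocyte path of whole marrow, ALPL stood at 0.395, 1.19 and 0.257 CPM in the VCAN gate. The VPREB1 gate gave 7.08, 13.7 and 1.57 CPM from 10, 6 and 3 UMIs. The GATA1 gate gave 0.0624, 8.73 and 2.68 CPM. In barcodes with HBM, a globin gene of the erythroid line, at 1% or more of their UMIs, 1 of 171, 2 of 231 and 0 of 127 carried an ALPL UMI at median depths of 34983, 34489 and 47112 UMIs. A count of 0 in 127 allows a share of up to 2.36%.

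As means over the 3 whole marrows the gates ran 57.9 ± 5.04 CPM for MPO, 46.8 ± 20.5 for the stem type, 13.4 ± 5.82 for low MPO, 9.88 ± 1.35 for ELANE, 7.47 ± 6.10 for VPREB1, 3.83 ± 4.45 for GATA1, 2.61 ± 3.48 for CXCL8, 2.13 ± 0.795 for LTF and MMP8, 0.943 ± 0.699 for CAMP and 0.615 ± 0.504 CPM for VCAN (SD, n = 3). The MPO and stem-type gates overlapped, as did the low-MPO, ELANE and VPREB1 gates. From GATA1 downward each gate overlapped the next in the order, while the LTF and MMP8 gate did not overlap the VCAN gate.

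The share of barcodes with an ALPL UMI followed the same order in the sorted libraries. In the MPO gate 90.3% (exact binomial 95% interval 87.1 to 92.9) and 87.2% (83.2 to 90.5) of sorted barcodes were positive, against 22.8%, 31.2% and 19.1% in whole marrow. Median depths in that gate were 26822 and 30507 UMIs in the sorted libraries, against 1280, 24787 and 2324 UMIs in whole marrow. Of the whole-marrow barcodes in the gate 83, 70 and 39 held at least 1000 UMIs, and below that depth 1 MPO UMI places a barcode in it. At 1000 UMIs per barcode the MPO gate had 13.1% and 15.8% positive sorted barcodes, against 3.61%, 8.57% and 0% (0 of 39) in whole marrow. The pro-B gate of the sorted libraries, with 8.91% positive in each, had 0.992% and 1.03% at that depth. The stem-type gate of the sorted libraries had 33.0% and 37.7% positive as deposited and 2.87% and 4.78% at 1000 UMIs.

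The spread of ALPL counts between barcodes was read in the sorted libraries at 3000 UMIs per barcode. In the MPO gate the variance of the count over its mean was 1.07 and 1.08, where pure counting gives a ratio of 1. The mean there was only 0.419 and 0.437 ALPL UMIs per barcode. At so low a mean counting dominates the ratio, so it cannot show that these cells were alike in ALPL. The ratio was 1.25 and 1.204 in the stem-type gate and 1.31 and 1.39 in the GATA1 gate. Mean counts were lower in those gates, which by itself brings the ratio nearer to 1. As deposited, sorted MPO-gate barcodes held a median of 3 and 4 ALPL UMIs and at most 21 and 18, at unequal depths.

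ALPL was next followed along MPO itself, over barcodes of at least 3000 UMIs with ELANE under 1%, with bins drawn after the values were seen. In CD34-sorted 1 the level was 39.8 CPM in barcodes with no MPO UMI, 66.0 CPM up to 0.02% MPO and 114 CPM at 0.02 to 0.05%. It was 125, 131, 156 and 137 CPM in the next bins up to 1% MPO. CD34-sorted 2 had 46.2, 76.2 and 135 CPM over the first bins and 147, 152, 147 and 140 CPM in the next. In both sorted libraries ALPL was already at 114 CPM or more by 0.02 to 0.05% MPO, and the bins from 0.05 to 1% spanned 125 to 156 CPM.

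In whole marrow ALPL was low in the bins of low MPO share. Barcodes with no MPO UMI had 1.16, 5.04 and 3.26 CPM, and those at 0.02 to 0.05% MPO had 4.80, 20.9 and 0.786 CPM. Median depth at 0.02 to 0.05% MPO was 5852 and 6663 UMIs in whole marrow 1 and 2, against 20650 and 23393 UMIs in the sorted libraries. ELANE there stood at 1041 and 453 CPM, against 0 and 1.19 CPM. The bin thus held unlike barcodes in the sorted libraries and these whole marrows, and the part of that in the ALPL level was not tested. At 0.2 to 0.5% MPO the level was 65.9, 30.1 and 35.4 CPM, and at 0.5 to 1% it was 100, 88.2 and 143 CPM from 12, 19 and 3 barcodes. The top bin held at most 4 whole-marrow barcodes per library. Just outside the limit of the MPO gate, at 0.08 to 0.1% MPO, sorted barcodes had 127 and 125 CPM, and just inside, at 0.1 to 0.12%, they had 136 and 150 CPM. Whole-marrow barcodes, at most 11 per library on either side, had 110, 0 and 81.8 CPM just outside and 29.5, 0 and 56.7 CPM just inside.

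**Figure D2:**
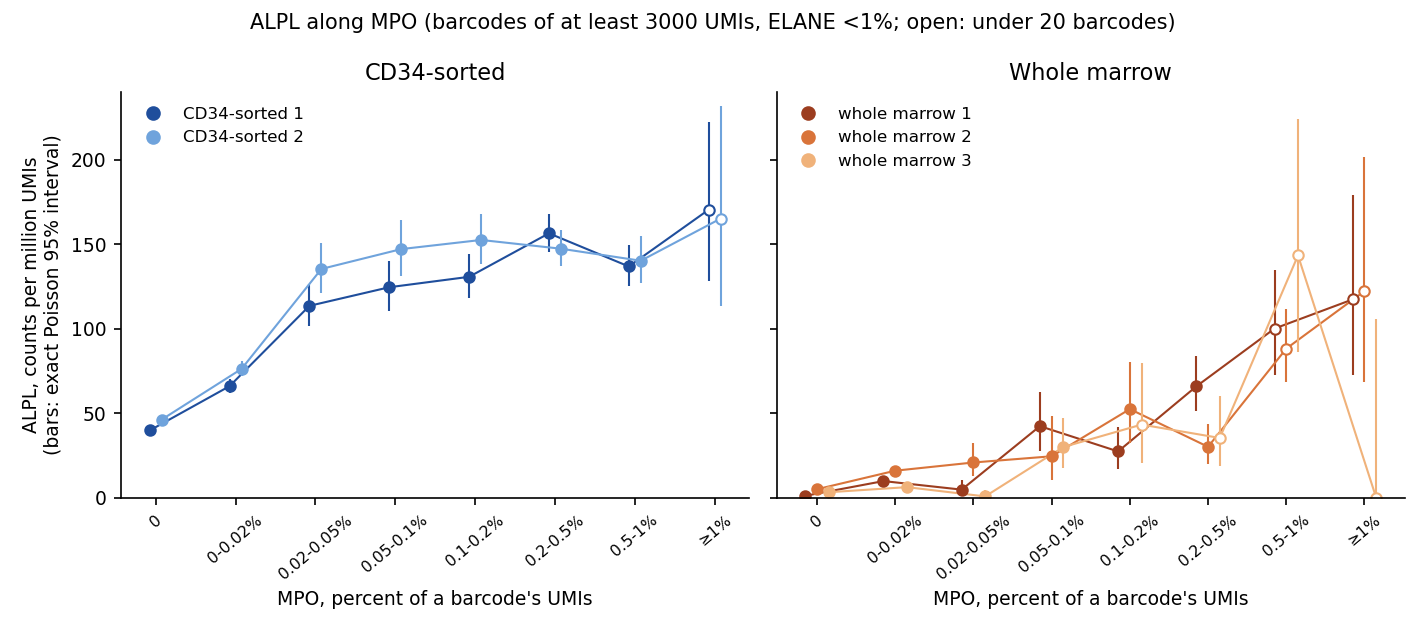
ALPL level in CPM (vertical axis) against the share of a barcode's UMIs that are MPO (horizontal axis), for sorted libraries (left) and whole marrow (right), with exact Poisson 95% intervals and open symbols under 20 barcodes. The sorted lines reach 114 and 135 CPM by 0.02 to 0.05% MPO, where the whole-marrow points lie at or under 20.9 CPM.

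Co-detection with CD34 and MPO was read first as deposited. Among ALPL-positive barcodes 96.4% and 93.5% had a CD34 UMI in the sorted libraries, against 68.9% and 51.8% of ALPL-negative ones. In whole marrow 48.5%, 47.4% and 52.0% of ALPL-positive barcodes had a CD34 UMI, against 1.76%, 1.32% and 1.41% of ALPL-negative barcodes. An MPO UMI was found in 64.1% and 59.4% of ALPL-positive sorted barcodes, against 21.4% and 21.6% of negative ones. The share was 83.6%, 73.7% and 77.3% of ALPL-positive whole-marrow barcodes, against 17.8%, 18.7% and 25.2% of negative ones. CD34 and MPO were found together with ALPL in 62.6% and 57.4% of ALPL-positive sorted barcodes and in 39.6%, 39.5% and 45.3% of ALPL-positive whole-marrow barcodes.

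ALPL-positive barcodes were deeper, with medians of 20015 and 22428 UMIs in the sorted libraries and 25406, 25661 and 30180 in whole marrow. ALPL-negative ones had medians of 8052 and 9538 UMIs in the sorted libraries and 2638, 3573 and 4241 in whole marrow. At 3000 UMIs per barcode, CD34 was found in 62.3% (58.0 to 66.6) of ALPL-positive and 60.0% (58.3 to 61.6) of ALPL-negative barcodes of CD34-sorted 1, whose intervals overlapped. In CD34-sorted 2 it was found in 56.3% (51.7 to 60.9) of ALPL-positive and 37.4% (35.6 to 39.2) of ALPL-negative barcodes. In whole marrow 26.5%, 15.0% and 38.9% of 34, 40 and 18 ALPL-positive barcodes had CD34 at that depth, against 1.94%, 1.61% and 1.27% of the ALPL-negative barcodes. MPO at 3000 UMIs was found in 43.0% and 42.4% of ALPL-positive sorted barcodes, against 19.3% and 17.4% of negative ones. In whole marrow it was found in 23 of 34, 20 of 40 and 4 of 18 ALPL-positive barcodes, against 22.7%, 18.4% and 18.7% of negative ones.

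The gates were also split by CD34 detection, after the values were seen, over barcodes of at least 3000 UMIs. In the MPO gate, barcodes with a CD34 UMI had 147 and 152 CPM of ALPL in the sorted libraries and 110, 83.1 and 83.5 CPM in whole marrow. Barcodes without one had 59.7 and 28.2 CPM from 13 and 15 sorted barcodes, and 16.8, 30.8 and 0 CPM from 42, 40 and 10 whole-marrow barcodes. The CD34-positive value exceeded the CD34-zero value in all 5 libraries, with no overlap. Median depth of these whole-marrow barcodes was 40882, 44082 and 40931 UMIs with CD34, against 29020, 24634 and 21389 without it. In the sorted libraries it was 26816 and 30779 UMIs with CD34, against 27667 and 25595 without it. At 3000 UMIs per barcode, CD34 was found in 45.9% of ALPL-positive and 47.3% of ALPL-negative MPO-gate barcodes of CD34-sorted 1. In CD34-sorted 2 it was found in 47.5% and 30.9%. The exact intervals overlapped in CD34-sorted 1 but not in CD34-sorted 2, so both sorted libraries did not share the link at equal depth. In whole marrow ALPL-positive barcodes of the gate numbered only 10, 8 and 2 at that depth.

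The low-MPO gate split further. With a CD34 UMI it had 122 and 155 CPM in the sorted libraries and 131, 102 and 124 CPM in 11, 8 and 4 whole-marrow barcodes. Without one it had 13.4 and 11.1 CPM in the sorted libraries and 0.503, 1.73 and 1.10 CPM in whole marrow. Median depths of these CD34-zero barcodes were 4744 and 7098 UMIs in the sorted libraries, and 7363.5, 7488 and 4564 in whole marrow. Those with CD34 had 21894 and 26249 UMIs, and 24025, 31070 and 31886. In whole marrow ELANE stood at 5829.9, 3132.5 and 1933.1 CPM without CD34, against 26.2, 51.2 and 73.2 CPM with it. The split thus set unlike barcodes side by side, and the parts of depth and stage were not tested. Once the barcodes held CD34, the sorted and whole-marrow values of the low-MPO gate overlapped. A single barcode, however, held 15 of the 30 ALPL UMIs in whole marrow 1 and 13 of the 17 in whole marrow 3. In the ELANE gate 7, 10 and 5 whole-marrow barcodes with a CD34 UMI had 49.8, 44.3 and 124 CPM, against 7.23, 7.18 and 5.25 CPM in the 474, 256 and 222 without one. In the GATA1 gate the CD34-positive barcodes had 69.4 and 83.1 CPM, against 31.6 and 16.0 CPM without CD34, in the sorted libraries. In whole marrow 2 and 3 they had 121 and 52.1 CPM, against 6.14 and 0.351 CPM, but 44 of 53 and 17 of 35 of those UMIs lay in 1 of 13 barcodes in each library. The 6 such barcodes of whole marrow 1 had none, which allows up to 15.0 CPM and so gives no order there. In the stem-type gate CD34-positive barcodes had 50.6 and 81.0 CPM in the sorted libraries and 34.4, 49.3 and 75.4 CPM in whole marrow. Sorted stem-type barcodes without a CD34 UMI had 5.58 and 8.76 CPM, at median depths of 6429 and 7164 UMIs, against 13324 and 14727 for those with one. Whole-marrow stem-type barcodes without one numbered 13, 3 and 11 and had 0, 0 and 15.5 CPM from 0, 0 and 2 UMIs. The count of 0 allows up to 14.7 CPM in whole marrow 1 and up to 156 CPM in whole marrow 2, which cannot show a lower level there. The split follows depth there, and its part in the difference was not tested.

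The stem-type gate was not uniform. Barcodes that also lay in the MPO gate were left out of the splits below, which left 1521 and 1648 sorted barcodes. Those with an MPO UMI had 54.5 and 88.1 CPM of ALPL in the sorted libraries, against 40.6 and 53.7 CPM in those with none. In whole marrow they had 41.5, 73.7 and 85.6 CPM, against 15.3, 31.7 and 22.2 CPM. Barcodes with at least 5 UMIs of DNTT, the terminal transferase of early lymphoid cells, made up 845 of these 1521 and 1240 of these 1648 sorted barcodes. They had 34.9 and 57.0 CPM, against 53.7 and 68.7 CPM in the 68 and 32 barcodes with no DNTT UMI.

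**Figure D3:**
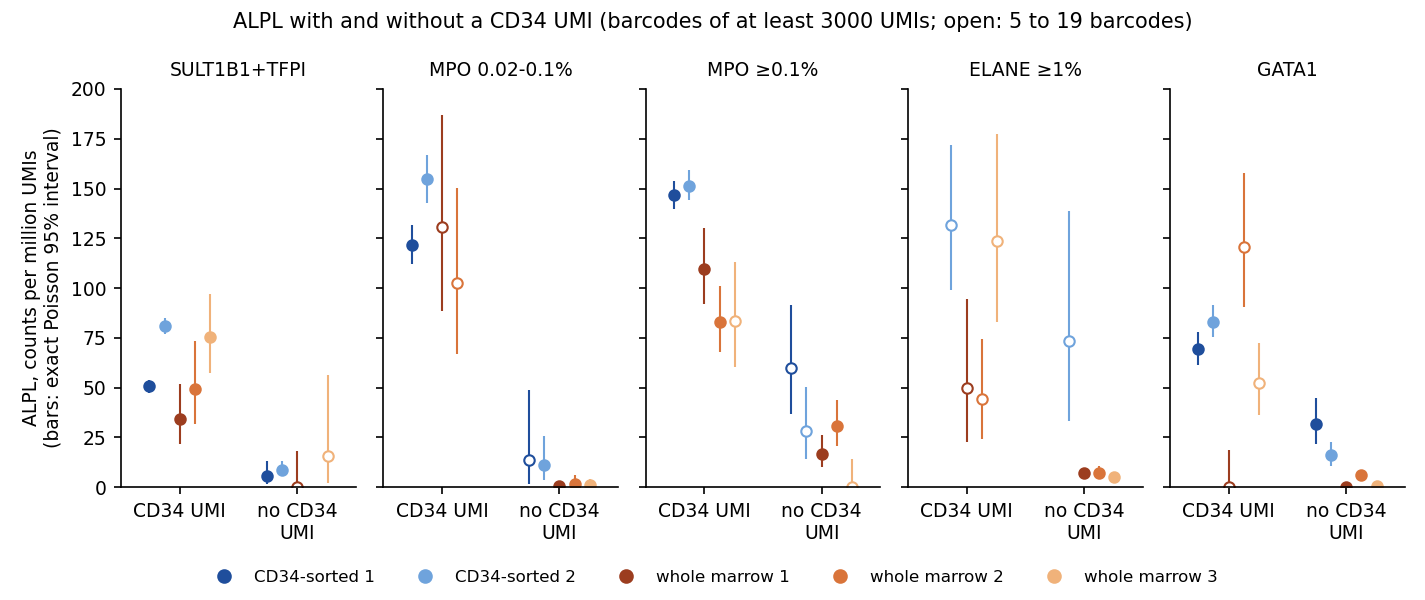
ALPL level in CPM (vertical axis) in barcodes of at least 3000 UMIs with a CD34 UMI (left of each panel) and without (right), for 5 gates, with exact Poisson 95% intervals and open symbols for 5 to 19 barcodes. In the MPO gate the CD34-positive points run from 83.1 to 152 CPM and the CD34-zero points from 0 to 59.7 CPM.

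Sorted and whole-marrow cells of the MPO gate were compared over summed counts per library with edgeR's quasi-likelihood test. ALPL, given as a description, was 2.52-fold higher by mean CPM, with a fitted log2 difference of 1.33 ± 0.14 (SE, sorted over whole marrow). Of 7472 genes tested 131, or 1.75%, passed a Benjamini-Hochberg adjusted p of 0.05, with 8 higher in sorted cells (0.107%) and 123 lower (1.65%). Among genes for pyrophosphate and phosphate handling (4 tested), vitamin B6 (4), extracellular adenosine (5) and GPI anchors (15) edgeR called 0 and DESeq2 called 0, with 1 of them (a GPI gene) at an unadjusted edgeR p under 0.05. Of 9 mature-neutrophil genes tested 5 were lower in sorted cells. S100A12, a calcium-binding protein of neutrophils, averaged 1.35 ± 1.21 CPM in sorted and 4424 ± 2200 CPM in whole-marrow cells (SD, n = 2 and 3), with a log2 difference of −11.70 ± 1.08 and an edgeR adjusted p of 0.0180. MMP9, a tertiary granule protease, averaged 0.0460 ± 0.0651 CPM in sorted and 51.8 ± 13.8 CPM in whole-marrow cells (edgeR adjusted p 7.85e-04).

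Of the red-cell list, HBM averaged 0.174 ± 0.0135 CPM in sorted and 41.1 ± 2.13 CPM in whole-marrow cells (edgeR adjusted p 1.15e-04), and AHSP and ALAS2 also fell. The whole-marrow gate thus held RNA of mature neutrophils and erythroid cells beside its lower ALPL, and the part of that RNA in the ALPL difference was not tested. Without CD34-sorted 1 or CD34-sorted 2 the calls numbered 15 and 14, and without whole marrow 2 they numbered 76. With the dog as a block, under the assumption that CD34-sorted 1 pairs with whole marrow 2 and CD34-sorted 2 with whole marrow 3, 463 genes passed and the ALPL log2 difference was 1.38 ± 0.15. Over barcodes of at least 3000 UMIs with a CD34 UMI 6 genes passed and it was 0.72 ± 0.17.

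MPO-gate cells were then compared with stem-type cells of the same library, over all 5 libraries. ALPL had a log2 difference of 1.13 ± 0.27 (SE, MPO over stem type), again as a description, and of 1.55 ± 0.11 over the sorted libraries alone. Of 7384 genes tested 3510, or 47.5%, passed (1797 higher, 24.3%, and 1713 lower, 23.2%). All 7 tested primary-granule genes rose. SERPINB1, an inhibitor of neutrophil serine proteases, averaged 645.5 ± 249.5 CPM in MPO-gate and 57.6 ± 20.3 CPM in stem-type cells (SD, n = 5). Its log2 difference was 3.48 ± 0.27, with an edgeR adjusted p of 2.48e-04. CEBPE, a factor of granulocyte maturation, averaged 57.0 ± 15.9 CPM in MPO-gate and 4.64 ± 5.87 CPM in stem-type cells (edgeR adjusted p 2.16e-06). Of 11 tested genes of stem and early progenitor cells 9 fell, among them CD34, at 119.9 ± 70.1 CPM in MPO-gate and 413.5 ± 90.9 CPM in stem-type cells (edgeR adjusted p 0.00728). The gates were set on MPO, itself a primary-granule gene, and on stem-type genes. The rise of granule genes and the fall of early ones are thus tied to how the gates were drawn and are no independent result.

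Genes of phosphate, vitamin B6 and adenosine handling were read in the same fit, though many of them do not act on the substrates of the phosphatase itself. Of 5 tested genes of pyrophosphate and phosphate handling 3 rose in MPO-gate cells, beside the 24.3% of all genes that rose. PPA1, the cytosolic pyrophosphatase, averaged 348 ± 70.4 CPM in MPO-gate and 181 ± 17.3 CPM in stem-type cells (edgeR adjusted p 6.64e-07). PPA2, its mitochondrial counterpart, and PHPT1, a histidine phosphatase, also rose, by 0.68 ± 0.10 and 0.23 ± 0.07 on the log2 scale. Of 4 tested vitamin B6 genes, PDXK, the kinase that makes pyridoxal phosphate, rose by 1.73 ± 0.15, PLPBP, a pyridoxal phosphate-binding protein, rose by 0.59 ± 0.15, and PSAT1, a pyridoxal phosphate-dependent aminotransferase, fell by 0.64 ± 0.19.

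Of 4 tested genes of extracellular adenosine, ADA (adenosine deaminase) rose by 1.00 ± 0.14, PNP (purine nucleoside phosphorylase) rose by 0.49 ± 0.16, ADK (adenosine kinase) rose by 0.43 ± 0.11, and SLC29A1, a nucleoside transporter, fell by 0.51 ± 0.10. Of 15 tested genes of GPI anchor synthesis 3 rose and 2 fell. PIGT, a subunit of the transamidase that attaches the anchor, averaged 33.3 ± 3.28 CPM in MPO-gate and 18.1 ± 3.96 CPM in stem-type cells (edgeR adjusted p 3.49e-05). The median log2 difference of the GPI list was 0.00, against 0.01 over all genes tested.

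The step from the MPO gate to the ELANE gate was measured in the 3 whole marrows. ALPL had a log2 difference of −1.74 ± 0.18 (SE, ELANE over MPO), as a description, and the ratio of CPM was 0.134, 0.177 and 0.207 in the 3 libraries. Of 7234 genes tested 4022, or 55.6%, passed (1926 higher, 26.6%, and 2096 lower, 29.0%). DESeq2 called 1452 higher and 1031 lower. Fitted differences are relative to the bulk of genes after scaling, and CPM are relative to all UMIs, so their signs can differ. PPA1 rose by 0.66 ± 0.11 in the fit but averaged 327 ± 57.4 CPM in ELANE-gate and 373 ± 84.9 CPM in MPO-gate cells, and ADK likewise rose by 0.56 ± 0.13 while its mean was 59.4 CPM in ELANE-gate and 71.5 CPM in MPO-gate cells (SD, n = 3). PPA2 rose on both scales, with 222 ± 16.0 CPM in ELANE-gate and 163 ± 23.0 CPM in MPO-gate cells. Of 8 tested adenosine genes 6 rose and 1 fell. NT5E, the ecto-5′-nucleotidase that shares AMP as a substrate with ALPL, averaged 6.59 ± 1.35 CPM in ELANE-gate and 3.65 ± 2.25 CPM in MPO-gate cells (SD, n = 3). Its log2 difference was 1.91 ± 0.38, with an edgeR adjusted p of 2.19e-06. ADORA2A, an adenosine receptor, rose by 2.40 ± 0.54 and PNP by 1.69 ± 0.13. ADA fell by 2.05 ± 0.28, to 3.60 ± 1.91 CPM in ELANE-gate against 27.8 ± 24.1 CPM in MPO-gate cells.

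Of 4 tested vitamin B6 genes 2 fell, PSAT1 by 1.08 ± 0.18 and PDXK by 0.45 ± 0.18. Of 16 GPI anchor genes 2 rose and 5 fell, and PIGT averaged 9.09 ± 1.81 CPM in ELANE-gate and 34.6 ± 3.48 CPM in MPO-gate cells (edgeR adjusted p 1.33e-07). All 7 primary-granule genes rose, and CD34 fell by 3.32 ± 0.21. These counts stand beside the 55.6% of all genes that changed. The gate was set on ELANE, itself a granule protease gene, so the rise of primary-granule genes is tied to how the gate was drawn.

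ALPL-positive and ALPL-negative cells were compared within the MPO gate, after each barcode had been thinned to 3000 UMIs so that the class does not follow depth. The 2 sorted libraries had enough cells, 146 positive against 296 negative in CD34-sorted 1 and 118 positive against 230 negative in CD34-sorted 2. Of 8588 genes tested 193, or 2.25%, passed, with 117 higher (1.36%) and 76 lower (0.885%). DESeq2 called 19 genes, 18 of them shared. Of the 14 genes named below it called SERPINB1, did not call CD34 and MYB (DESeq2 adjusted p 0.133 and 0.536), and gave no adjusted p for the other 11. Since UMIs that set the class stay in the sums, ALPL itself was at 211 and 227 CPM in positive cells, against 112 and 105 CPM in negative cells, and is no result. As deposited, 399 of 442 and 306 of 351 barcodes of the gate held an ALPL UMI, so most cells classed negative carried ALPL. The classes thus stand for detection in a draw of 3000 UMIs, not for presence and absence.

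Of 12 tested myeloid regulators 3 rose and 1 fell by edgeR, and DESeq2 called 0. CEBPE had 75.5 and 68.7 CPM in ALPL-positive cells, against 52.4 and 42.7 CPM in ALPL-negative cells, with a log2 difference of 0.64 ± 0.09 and an edgeR adjusted p of 1.01e-07. GFI1, a repressor needed for neutrophil development, had 53.2 and 64.1 CPM in positive cells, against 43.1 and 47.9 CPM in negative cells (log2 difference 0.40 ± 0.10, edgeR adjusted p 0.005195). MYB, a progenitor factor, rose by 0.25 ± 0.06. SERPINB1, the 1 of 7 primary-granule genes that edgeR called (DESeq2 called 2), had 572 and 487 CPM in positive cells, against 431 and 355 CPM in negative cells (log2 difference 0.47 ± 0.04, edgeR adjusted p 4.52e-16). For each of these genes both positive sums lay above both negative sums, except MYB, where 123 CPM in the positive cells of CD34-sorted 2 lay below 156 CPM in the negative cells of CD34-sorted 1.

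All 3 monocyte-list genes that could be tested fell by edgeR, and DESeq2 called 0. CSF1R, the receptor of macrophage colony-stimulating factor, had 4.86 and 3.74 CPM in positive cells, against 11.2 and 11.1 CPM in negative cells (log2 difference −1.33 ± 0.26, edgeR adjusted p 2.81e-04). LY86, a partner of the toll-like receptor homologue CD180, had 77.5 and 57.7 CPM in positive cells, against 106 and 97.2 CPM in negative cells (−0.55 ± 0.08, edgeR adjusted p 1.48e-07). CTSS, cathepsin S of antigen-presenting cells, had 59.4 and 59.0 CPM in positive cells, against 79.7 and 75.4 CPM in negative cells (−0.35 ± 0.09, edgeR adjusted p 0.00614). No sum of 1 class overlapped the other class for these 3 genes.

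Among the fallen genes with the largest change were DLA-DMA, a class II antigen-loading gene, at −1.10 ± 0.15, PLBD1, a phospholipase B-like protein, at −0.96 ± 0.10, LGALS1 (galectin 1) at −0.97 ± 0.16 and LRRK2, a kinase, at −0.90 ± 0.17. Among the risen ones were CMA1 (mast cell chymase) at 1.26 ± 0.18 and CITED2, a transcriptional coregulator, at 0.95 ± 0.16. CD34 rose by 0.30 ± 0.06, with 242 and 203 CPM in positive cells, against 222 and 152 CPM in negative cells, which overlap between libraries. Of the tested genes of pyrophosphate handling (6), vitamin B6 (4), extracellular adenosine (6) and GPI anchors (19), edgeR called 0 and DESeq2 called 0, with 0, 1, 1 and 1 at an unadjusted edgeR p under 0.05. Of 3 eosinophil, basophil and mast cell genes both tools called 0, with 2 at an unadjusted edgeR p under 0.05. Over all genes 990 had such a p.

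These calls rest on 2 libraries with 1 residual degree of freedom shared over genes. With the class set at 1000 UMIs 17 genes passed, with CEBPE, LY86, DLA-DMA and PLBD1 still called and the other 10 not called. On thinned counts 12 genes passed, with CMA1 called, CSF1R and LGALS1 not tested and the other 11 not called.

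**Figure D4:**
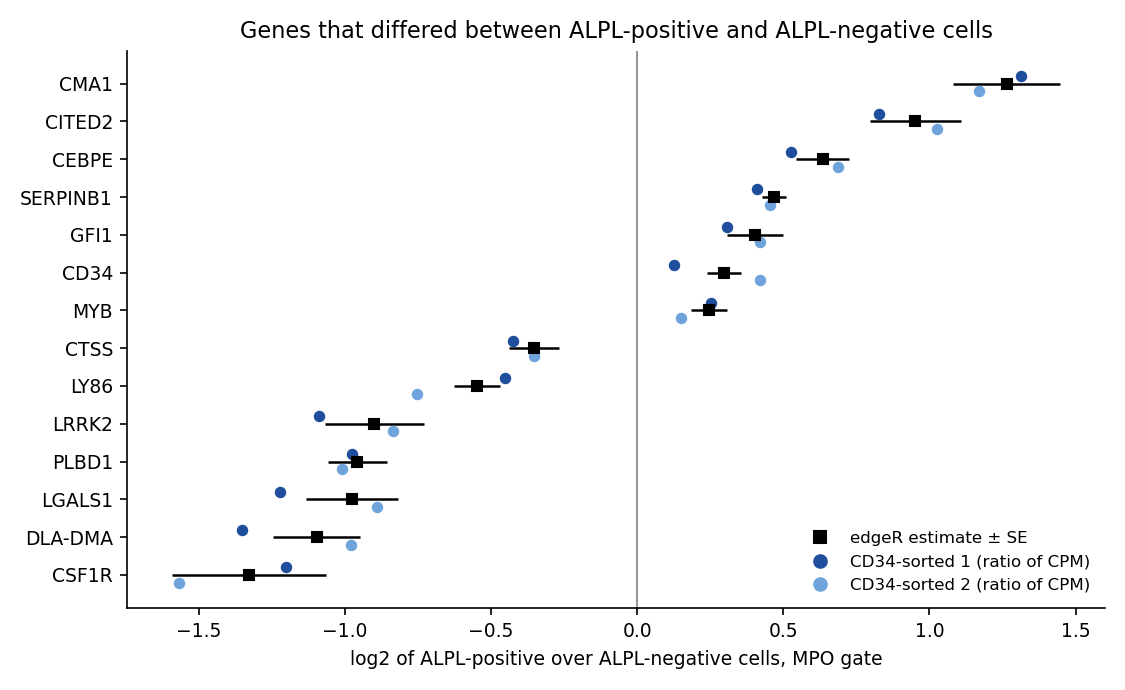
The log2 ratio of ALPL-positive over ALPL-negative MPO-gate cells (horizontal axis) for named genes (vertical axis), as the edgeR estimate with its SE (squares) and as the ratio of CPM in each sorted library (circles). CSF1R lies at −1.33 and CMA1 at 1.26, and both sorted libraries fall on the same side of 0 for each gene drawn.

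Whether ALPL differed by cell cycle inside the MPO gate was tested, since the gates do not use it. Cycling cells had at least 2 UMIs of MKI67, TOP2A, CENPF and TPX2 at 3000 UMIs. ALPL stood at 153 and 149 CPM in cycling cells of the sorted libraries, against 142 and 147 CPM in non-cycling cells. It stood at 64.7 and 57.8 CPM in cycling cells of whole marrow 1 and 2, against 61.6 and 64.7 CPM in non-cycling cells. Cycling cells were thus a little higher in 3 of the 4 libraries and lower in whole marrow 2. The edgeR log2 difference, after scaling between sums, was −0.06 ± 0.09 (adjusted p 0.882), smaller than its SE. Of 6758 genes tested 463, or 6.85%, passed (212 higher, 3.14%, and 251 lower, 3.71%). Of 7 primary-granule genes 3 fell in cycling cells, SERPINB1 by 0.55 ± 0.07 on the log2 scale. With at least 4 cycling UMIs the ALPL difference was −0.32 ± 0.11 (edgeR adjusted p 0.0599).

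To place ALPL among other genes, log2(CPM + 1) was correlated over 42 sums of a library and a gate, 12 sorted and 30 from whole marrow. Sums of a library share its depth and cells can sit in more than 1 gate, so the values are a description. Of 7640 genes ranked the most alike were CCND2 (cyclin D2, Pearson r 0.948), SCRN2 (0.921), RARRES2 (chemerin, 0.911), GLT8D2 (0.910), LRP5 (a Wnt co-receptor, 0.905), NTSR1 (a neurotensin receptor, 0.903), CCDC30 (0.902), SLCO4A1 (an organic anion transporter, 0.897), DNAAF4 (0.891) and KIT (the stem cell factor receptor, 0.891). CD34 had an r of 0.847, MPO 0.270 and ELANE −0.523. Over the 12 sorted sums alone CCND2 had an r of 0.715 and CD34 −0.289, and over the 30 whole-marrow sums they had 0.920 and 0.792. The most alike genes listed above ran from 0.317 (GLT8D2) to 0.84 (DNAAF4) over the sorted sums. Over the whole-marrow sums they ran from 0.803 (DNAAF4) to 0.920 (CCND2). KIT averaged 71.9 CPM in sorted and 42.6 CPM in whole-marrow MPO gates, 80.2 CPM in sorted and 52.7 CPM in whole-marrow stem-type gates, and 8.44 CPM in the whole-marrow ELANE gate.

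The MPO gate did not hold the highest ALPL level when every barcode was considered. Whole-marrow barcodes with at least 5 UMIs of EPX (eosinophil peroxidase), a set chosen after the values were seen, had 426 CPM (281 to 620) in 4 barcodes, 698 CPM (602 to 804) in 19 and 433 CPM (300 to 605) in 3. All but 1 of these 26 barcodes had no CD34 UMI. They made up 0.0548%, 0.414% and 0.0691% of whole-marrow barcodes and carried 7.30%, 39.7% and 12.8% of the ALPL UMIs. No sorted barcode had 5 EPX UMIs. The 2 and 4 sorted barcodes with 1 to 4 EPX UMIs had 600 and 570 CPM. All of these sorted barcodes held a CD34 UMI, and 2 in each library held an MPO UMI. Barcodes with at least 3 UMIs of MS4A2, the beta chain of the IgE receptor in mast cells and basophils, and under 5 of EPX had 162 and 139 CPM in the sorted libraries and 12.8, 81.0 and 30.9 CPM in whole marrow. In whole marrow 2, 44 of the 50 ALPL UMIs of that set lay in 1 of its 46 barcodes. Without barcodes holding an EPX UMI the GATA1 gate of whole marrow 2 had 0.738 CPM in place of 8.73 CPM.

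Markers of the tissues best known for the enzyme were nearly absent beside it. In the MPO gate 16 osteoblast and stroma genes summed to 1.48 and 0.552 CPM in the sorted libraries and to 1.21, 1.80 and 0 CPM in whole marrow, and COL1A1 was at 0 in all 5 libraries. The 9 endothelial genes summed to between 3.24 and 4.79 CPM in the 5 libraries. Barcodes with at least 2 collagen UMIs numbered 3, 4 and 4 in whole marrow and 0 in the sorted libraries, and held no ALPL UMI. That count of 0 allows up to 310, 99.8 and 34.9 CPM. None of the other alkaline phosphatase genes listed (ALPI, ALPP, ALPG and ALPPL2) was found by symbol among the features.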

How the data were processed

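UMI counts per feature and barcode were deposited for 5 droplet 3′ single-cell libraries. Per the submitters' processing notes these counts were made with Cell Ranger 7.1.0 on CanFam3.1; the file headers name Cell Ranger 7.0.1. Kept barcodes had 200 or more genes and 10% or less of their UMIs from the 13 mitochondrial genes, and doublets were not removed. ALPL was summed per library and gate and scaled to CPM, with exact Poisson intervals, and shares had exact Clopper-Pearson intervals (95%). Shares were also taken after thinning to 1000 or 3000 UMIs, leaving out shallower barcodes. The limit that a count of 0 allows is 3 counts.

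Raw counts of at least 20 barcodes per sum were tested with edgeR 4.0.16 (quasi-likelihood, TMM, filterByExpr, robust, library as a block except between sorted and whole marrow, Benjamini-Hochberg 0.05). An SE is the size of the log2 difference over the square root of F. DESeq2 1.42.0 was an alternative, and scanpy 1.11.5 called doublets for another. Genes that set a class or gate were left out of counts of calls. Replicates are libraries of 3 dogs. The protocol takes sorted cells from marrows 2 and 3, so the dog pairs 2 libraries of each group, assumed to be in the order the protocol lists them, which no label states (r of deviations 0.282 over 7475 genes, the same for both pairs by construction). On simulated data with 200 changed genes, all drawn from the more highly expressed ones, log2 changes of 1 were recovered in 98 to 100% of cases, but in 41% between sorted and whole marrow. Recovery of genes at a few CPM was not simulated.

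Genes are named as the list members with the largest called change (up to 4 per list), the 10 genes most like ALPL, and genes of the ALPL classes. The latter were the 10 largest risen and fallen genes among those called with the same sign in every library. Others were chosen after their values were seen. ALPL, the gates and the lists were chosen with earlier results of these data known. Of the features 4432 carry no symbol and are not named. No genome of the files' build was used, so no coordinates or sequences are given.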

Additional observations from a re-analysis of the deposited data

Results flagged for a closer look

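The low-MPO and stem-type gates stood in opposite order in the sorted and whole-marrow libraries. The ALPL level of the low-MPO gate over that of the stem-type gate averaged 2.155 in the sorted libraries, with 2.38 and 1.93, against 0.481, 0.413 and 0.1198 in whole marrow. Every sorted library was above 1 and every whole-marrow library below it, and the difference was not tested. Low-MPO barcodes had median depths of 19370 and 24162 UMIs in the sorted libraries, against 3388, 3577 and 3053 in whole marrow. These barcodes carried ELANE at 0.580 and 5.56 CPM in the sorted libraries, against 4548, 2306 and 1586 CPM in whole marrow, so the gate held unlike barcodes. Among those of at least 3000 UMIs with a CD34 UMI, ALPL was 122 and 155 CPM in the sorted libraries and 131, 102 and 124 CPM in whole marrow. The whole-marrow values rest on 11, 8 and 4 barcodes. A single barcode held 15 of the 30 ALPL UMIs in whole marrow 1 and 13 of the 17 in whole marrow 3.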

How the results depend on the processing

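Calls between ALPL-positive and ALPL-negative cells numbered 193, against 19 with DESeq2, 17 and 50 with the class set at 1000 and 5000 UMIs, 12 on thinned counts, 119 at an MPO limit of 0.2% and 81 with 5 cells per sum. Their log2 differences reversed for CAMP (−0.02 at 1000 UMIs, −3.81 with 5 cells), S100A8 (−1.27 with 5 cells), DPEP3 (−0.28 at 5000), LIMCH1 (−0.10 at 1000), FAM177A1 (−0.19 at 1000) and AKAP12 (0.22 at 1000, 1.10 at 5000). Cycling cells had 463 calls, 254 with DESeq2 and 275 to 453 leaving out a library. The MPO against the stem-type gate had 3510, with 2181 to 4082 leaving out a library and 5367 in sorted libraries alone. Sorted against whole marrow had 131, with 293 by DESeq2, 313 without the low-count filter, 14 to 164 leaving out a library, 463 with the dog as replicate block and 6 in CD34-positive barcodes of at least 3000 UMIs. ELANE against MPO had 4022, with 2483 by DESeq2, 3089 to 3923 leaving out a library and 1375 at a mitochondrial limit of 5%, where S100A8 (−0.41) and HBM (−0.67) reversed.

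At that 5% limit, which kept 1062 and 169 sorted barcodes, mean ALPL was 126.7 CPM in all sorted, 86.04 in sorted stem-type and 124.4 in sorted MPO-gate barcodes. In whole marrow it was 4.882 in all, 18.85 in stem-type, 33.69 in MPO-gate and 5.53 in ELANE-gate barcodes. With barcodes in exactly 1 gate the whole-marrow MPO and ELANE gates had 63.36 and 17.86 CPM. The causes were not tested. The ALPL difference by cycling stayed short of the threshold, with edgeR or DESeq2 adjusted p from 0.0599 to 0.991. Of the other ALPL levels by gate and setting, thinned shares among them, 70 moved by less than 1 SD between libraries and 19 by more. That count leaves out mean CPM of all, stem-type and MPO-gate barcodes and of the whole-marrow ELANE gate. Of named genes 1102 values kept their call and 182 lost it. ALPL classes could not be fitted without either sorted library, nor ALPL classes, cycling and the stem-type comparison at the 5% limit. Cells per sum, depth, EPX and sorted-alone settings were added after seeing the data. Depth limits shares of barcodes in whole marrow, and 2 or 3 libraries a group limit every test.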
